A study of Rattus norvegicus with 20 samples.

Results

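Heart cells cultured from neonatal rats and exposed to diclofenac for 24 h at the full reference concentration (labelled 1, 3 arrays) were compared with cultures exposed for 24 h at the lowest (labelled 1/25, 3 arrays), a 25-fold span of concentration at 1 time. The 6 arrays were chosen by their titles and come from a series of 20 one-colour Agilent arrays. The other 14 arrays were untreated cultures (n = 2), both of these concentrations at 6 h, and the middle concentration (1/5) at 6 h and at 24 h (n = 3 each). All cultures were primary, were made from heart tissue of neonates, had a day of growth in DMEM medium before treatment and are labelled as cardiomyocytes, the contracting cells of heart muscle. The labels do not give the molar value of the reference concentration, the vehicle, the rat strain or the time at which the untreated cultures were taken. Whether replicates were separate cultures is also not stated, so the p-values below reflect the scatter among these arrays, and that scatter may be technical.

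Diclofenac is a nonsteroidal anti-inflammatory drug that inhibits the cyclooxygenases Ptgs1 and Ptgs2, the enzymes that start the synthesis of prostaglandins, prostacyclin and thromboxane from arachidonic acid. It is cleared mainly by cytochrome P450 hydroxylation and by glucuronidation, the coupling to a sugar acid by enzymes of the Ugt families. Igtp, the gene on which the result below turns, encodes an immunity-related GTPase that interferon induces. Interferon-induced genes often carry a gamma-activated site (GAS) or an interferon-stimulated response element (ISRE) in their promoters.

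Igtp was measured by 1 probe of 60 bases at chr10:43865662-43865721 on the plus strand of build rn3, the build named in the array files. It is printed because the only called difference of the comparison rests on it, and 0 other probes of the array share a run of 20 bases with it. The RefSeq table of promoters (build GRCr8) holds 1 window for Igtp, chr10:42874797-42875096 on the plus strand, from 250 bases before the start of the gene to 50 after it. Capitals mark the GAS letters TTCNNNGAA and the ISRE core letters GAAANNGAAA, searched on both strands. The matches do not overlap.
Igtp probe: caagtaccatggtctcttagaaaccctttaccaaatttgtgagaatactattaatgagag
Igtp promoter: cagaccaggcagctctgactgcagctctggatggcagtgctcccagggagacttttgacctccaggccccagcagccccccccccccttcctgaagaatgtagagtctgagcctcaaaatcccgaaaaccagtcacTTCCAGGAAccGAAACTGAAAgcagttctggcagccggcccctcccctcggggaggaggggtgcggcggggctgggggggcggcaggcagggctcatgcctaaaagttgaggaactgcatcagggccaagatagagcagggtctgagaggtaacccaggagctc
Of 33469 promoter windows of this length, 8.87% held the GAS letters, 3.92% the ISRE core and 0.514% both. A match in such a window is a description of its letters and not a bound site.

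Igtp rose at the full concentration. Levels throughout are log2 of the scanner's processed signal minus the 75th percentile of the array, so 0 is the level of a spot at that percentile. Igtp read -3.98, -4.26 and -5.32 on the 3 arrays of the full concentration, and -7.73, -8.56 and -8.50 on those of the lowest. All 3 arrays of the full concentration stood above all 3 of the lowest, and the scanner software marked the spot well above background on the former 3 and on 0 of the latter. The mean was -4.52 ± 0.71 (SD, n = 3) against -8.26 ± 0.46 (SD, n = 3). The difference was 3.74 ± 0.44 (log2, SE; 95% interval 2.81 to 4.67), with an adjusted p of 0.00543 by limma with Benjamini-Hochberg adjustment over 30516 genes. Because Igtp was not detected at the lowest concentration, its fold has no measured value on that side. On this scale the figure was 13.4-fold. It takes for each array of the lowest concentration the spot's own signal or, where that was higher, the lowest signal well above background. The figure lies close to the fitted difference and is not a lower limit, since the 95% interval starts at 2.81 (log2). It belongs to this scaling and background subtraction: the difference was smaller with normexp correction (2.28) and with quantile normalization (3.1).

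On the other arrays Igtp stayed near the level of the lowest concentration. The middle concentration at 24 h gave -7.87, -8.26 and -6.61, and the untreated cultures -7.91 and -7.80. The value of -6.61 came from replicate 3 of the middle concentration, a weak array. Its 75th percentile of raw signal (3165) and its share of spots well above background (64.1%) were the lowest of the series. At 6 h the 9 treated arrays lay between -8.29 and -7.32. None of these 14 arrays had the spot well above background, so the 3 arrays of the full concentration at 24 h were the only ones of 20 on which Igtp was detected. Igtp stayed in the test only through that group. Its 3 arrays shared a slide with 1 array of another group, replicate 3 of the lowest concentration at 6 h, on which Igtp read -8.20. No slide held both concentrations at 24 h, so slide and concentration cannot be told apart in this comparison.

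**Figure D1:**
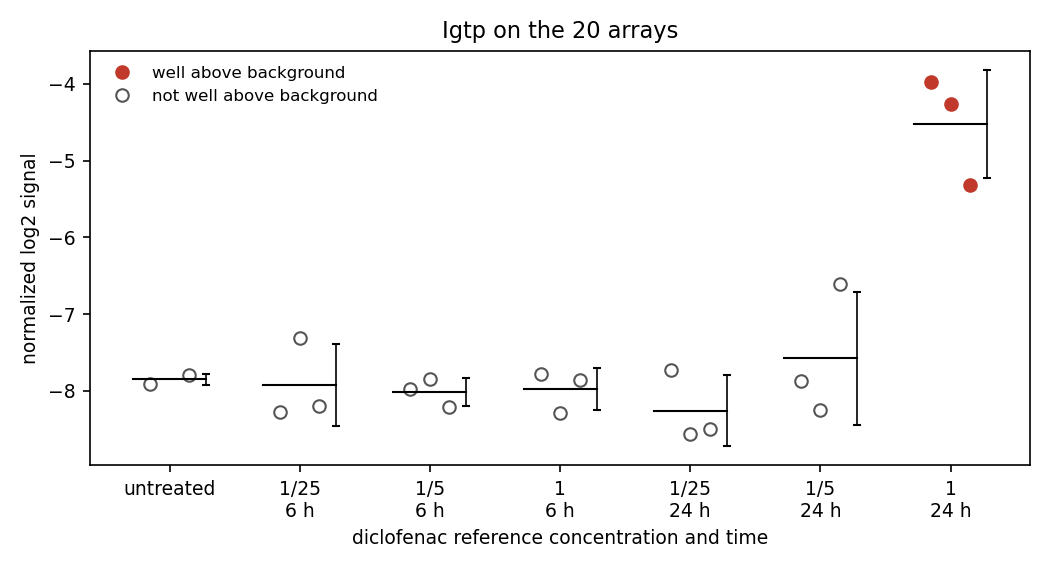
Igtp on all 20 arrays, as log2 processed signal minus the array's 75th percentile; each point is 1 array, filled where the spot was well above background, and the line and bar give the mean and SD of the group. The 3 arrays of the full concentration at 24 h, from -5.32 to -3.98, are the only filled points, and the highest of the other 17 is at -6.61.

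The call depended on the processing and on single arrays. The difference stayed positive under the 21 alternatives in which Igtp was tested, from 2.28 to 4.14. Several of these, such as the trended prior and the replicate block, could not change the difference. Leaving out a single array could not turn the sign either, since the groups did not overlap. The shared direction is therefore no test of the result. The adjusted p by limma was 0.613 with quantile normalization, 0.125 with scaling to the array median and 0.124 in the authors' deposited table. It was 0.359 with normexp background correction, 0.336 with only the 6 arrays in the fit and 0.0712 with a trended and robust prior. Without replicate 1 or 2 of the full concentration it was 0.0776 and 0.0748, and without replicate 2 or 3 of the lowest it was 0.065 and 0.0746. It passed under 10 others, of which the lowest adjusted p was 2.78e-06, from a limma fit that weighted the arrays. With scan day as a term the difference was 3.21. Replicates 2 and 3 of the lowest concentration were the only arrays of their scan day, and that term takes them up. Replicate 1 alone then stands for the lowest concentration, so no p is given for that fit.

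The other interferon-stimulated genes did not move with Igtp past the test. Of 25 genes on that list 23 were measured and 1, Igtp, passed, against 0.00328% of all genes tested. The median difference over the 23 was 0.19 (0.07 over all genes) and 14 of them lay above 0. Under quantile normalization that median was -0.08 (0.00 over all genes). Values next below Igtp were 1.11 ± 0.55 (SE) for Isg15, a ubiquitin-like modifier, and 1.09 ± 0.39 for Oasl, an oligoadenylate synthetase-like protein, both at an adjusted p of 0.828 and both named after their values were seen. The lowest value was that of Ifit1, an RNA-binding antiviral protein, at -0.76 ± 0.41, with levels of 0.39, 0.53 and 0.76 at the full concentration and 1.76, 0.42 and 1.78 at the lowest. Its groups overlapped through replicate 2 of the lowest concentration.

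The related GTPase Irgm read -0.94, -0.23 and -0.45 at the full concentration and -0.03, -0.76 and 0.03 at the lowest, a difference of -0.28 ± 0.37 (SE). The groups overlapped, and Irgm was detected on all 6 arrays. Another GTPase of this kind, Ifgga2l1, chosen for naming after its values were seen, differed by 0.82 ± 0.53 with overlapping groups. Of the 19 list members with a promoter window, 7 held the GAS letters, 13 the ISRE core and 5 both. The 5 with both were Igtp (3.74), Psmb8 (0.43), Bst2 (0.17), Oas1a (-0.13) and Irgm (-0.28). Of these only Igtp passed the test, and a part of the letters in its rise was not tested.

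Over all genes, the comparison gave 1 call (0.00328%), higher at the full concentration, and 0 lower. At an unadjusted p under 0.05, limma gave 979 genes higher (3.21%) and 548 lower (1.8%), together 5.0% of the 30516 tested. These counts rest on single arrays: they were 1627 and 3460 without replicate 3 of the middle concentration, which enters only through the shared spread, and 3196 and 803 without replicate 2 of the lowest. The median SE of a difference was 0.49, and the median difference over all genes was 0.07. In 645 genes (2.11%) all 3 arrays of the full concentration stood above all 3 of the lowest by a mean of at least 1 on the log2 scale, and in 250 (0.819%) all stood below by as much. The named genes that follow have the smallest p-values among those of them with a gene symbol, 9 higher beside Igtp and 10 lower. None passed the test, and they are given as values.

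Among these genes the smallest p after Igtp was that of Fbxo46, an F-box protein, the kind that selects substrates for ubiquitin ligases. It read -2.90, -2.04 and -3.08 at the full concentration, -3.18, -2.80 and -3.33 at the middle and -4.64, -4.61 and -4.30 at the lowest. Full and middle concentrations lay together above the lowest, with untreated cultures at -3.58 and -3.91. The difference between full and lowest was 1.84 ± 0.34 (SE), at an adjusted p of 0.390 by limma. Ttbk1, a tau tubulin kinase, differed by 1.73 ± 0.34 (-1.76, -1.33 and -1.74 against -3.26, -3.36 and -3.38). Its 3 arrays at the lowest concentration were the lowest of the 24 h series, below the untreated -1.98 and -2.66.

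Ugt1a6, a glucuronosyltransferase that conjugates phenols and is a known target of the aryl hydrocarbon receptor, read -2.87, -3.04 and -3.15 at the full concentration and -4.70, -4.41 and -5.54 at the lowest. The groups did not overlap, and the untreated arrays (-3.82 and -3.90) and the mean of the middle concentration (-3.45) lay between them. The difference was 1.87 ± 0.39 (SE), at an adjusted p of 0.532. Cyp1a1, the classical target of that receptor, differed by -0.07, and Cyp1a2 by 0.98 ± 0.63 (both named after their values were seen). Ugt1a6 was the only one of the 21 measured genes of drug metabolism and transport at an unadjusted p under 0.05. Its transcript shares exons with the other Ugt1a genes, so its signal may not be its own alone. The list had a median of 0.04, 11 of 21 members above 0 and 0 calls. Its lowest value was -0.69 ± 0.83, for the cytochrome P450 Cyp2c11.

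Tcte1, a gene of the axoneme of sperm tails, had a difference of 2.89 ± 0.62 (SE), at an adjusted p of 0.532. It read -0.10, -0.56 and -0.46 at the full concentration and -3.19, -3.11 and -3.51 at the lowest, with untreated cultures at -1.30 and -1.56. Tmeff1, a transmembrane protein with follistatin-like and EGF-like domains, differed by 1.86 ± 0.40 and its relative Tmeff2 by -2.25 ± 0.72. Tmeff1 stood at the untreated level at the full concentration (mean -2.37 against -2.25) and lower at the lowest (-4.24). Tmeff2 was detected on 0 of 3 arrays of the full concentration and on 2 of 3 of the lowest, where it read -3.52, -4.29 and -6.56. Replicate 3 of the lowest lay close to the full arrays, and no fold is given.

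The remaining higher values were those of Pkib (2.04 ± 0.47), an inhibitor of cAMP-dependent protein kinase, the homeobox gene Msx3 (1.49 ± 0.35), and the olfactory receptor genes Or6d13c (2.52 ± 0.52) and Or14j5e (2.79 ± 0.66). Pkib, Or6d13c and Or14j5e were detected on all 3 arrays of the full concentration and on 0 of 3 of the lowest. With the lowest concentration below detection, no fold is given for them. Or6d13c read -4.51 and -3.74 in untreated cultures and -3.69, -5.60 and -4.84 at the full concentration, which overlapped. Adjusted p-values of the 9 genes ran from 0.390 to 0.734.

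Among the 10 lower values, several genes were brightly expressed. Atp5mc1, a membrane subunit of mitochondrial ATP synthase, read -0.17, 0.44 and 0.37 at the full concentration against 1.23, 1.50 and 1.97 at the lowest, a difference of -1.36 ± 0.41 (SE). Hint1, a purine nucleoside phosphoramidase, read -0.09, 0.13 and -0.05 against 1.50, 0.67 and 1.27, a difference of -1.15 ± 0.32. Rab5if, which takes part in the assembly of the respiratory chain, differed by -1.33 ± 0.42. In each of these 3 genes no array of the full concentration reached any array of the lowest.

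The untreated arrays were not on one side: Hint1 read -0.26 and -0.23 in them, at the level of the full concentration, and Atp5mc1 0.64 and 0.87, between both. Rplp0l1, a ribosomal protein-like locus whose signal may be shared with near-identical copies, differed by -1.76 ± 0.51. Its arrays of the lowest concentration were spread over 2.54, 0.30 and 2.48. Tbc1d5, a regulator of endosome to Golgi transport, had a wider spread: -1.30, -1.91 and -4.02 at the lowest concentration and -4.52, -4.70 and -5.01 at the full. Its difference was -2.34 ± 0.69, and replicate 3 of the lowest lay within 1 unit of all 3 full arrays.

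Nucb2, the precursor of nesfatin-1, differed by -1.06 ± 0.34 and varied little at the full concentration (-0.71, -0.64 and -0.66). The chromatin protein Morf4l1 differed by -1.06 ± 0.35 and Cspg4, a proteoglycan of pericytes, by -1.03 ± 0.34. The olfactory receptor gene Or2ag19 had the smallest p of the lower group, with -4.45, -4.27 and -4.11 against -3.56, -2.43 and -2.99. Adjusted p-values of the 10 lower genes lay between 0.803 and 0.828. The mean of the middle concentration fell between the other concentrations in 9 of the 10 higher genes, Igtp included, and in 6 of the 10 lower ones. These genes were chosen for full and lowest values that lay apart, and no share over all genes is given. The counts therefore cannot test for a graded response. Igtp was well above background on 0 of 3 arrays of the middle concentration, so its mean there is not a measured level.

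**Figure D2:**
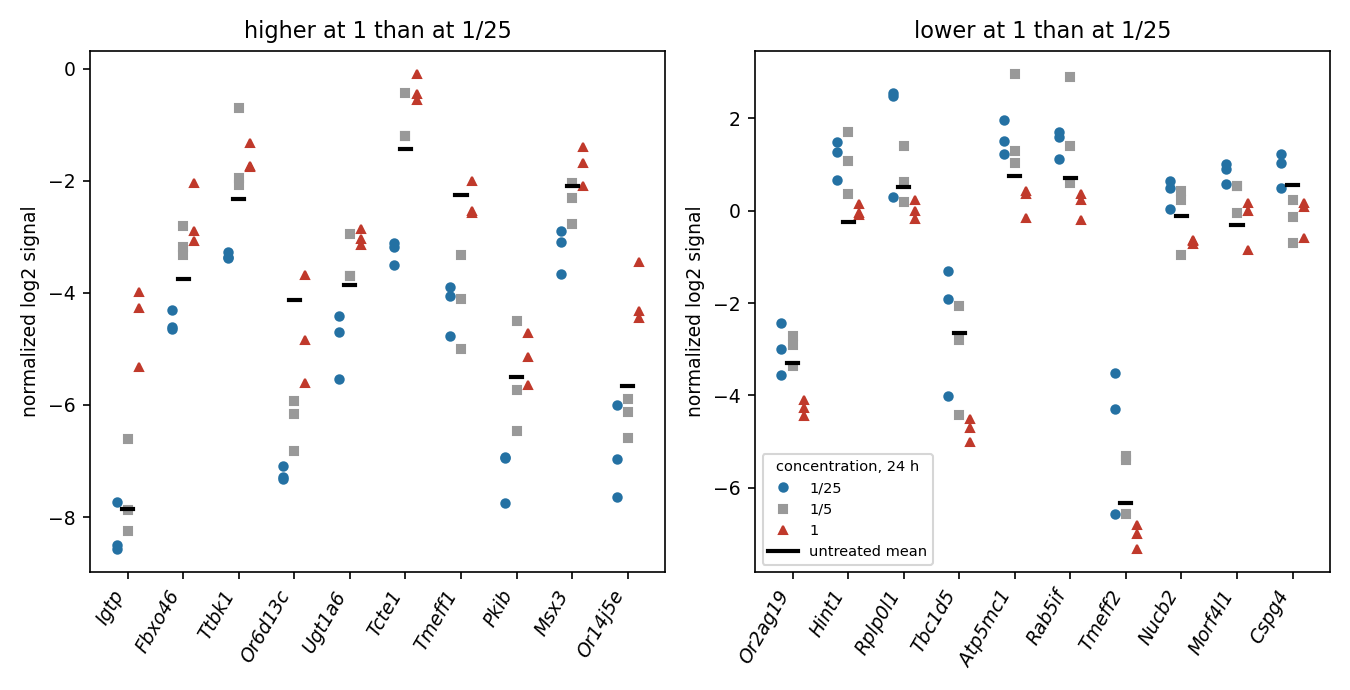
The 10 named genes with higher and the 10 with lower values at the full concentration, as log2 processed signal minus the array's 75th percentile at 24 h; each symbol is 1 array (circles 1/25, squares 1/5, triangles 1) and the bar is the untreated mean. Circles and triangles do not overlap within a gene, as the choice of genes required, while squares often lie between them or beyond them.

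At 6 h the same span of concentration was tested on other treated arrays and gave 6 calls (0.0197% of 30514 genes), all higher at the full concentration, and 0 lower. At an unadjusted p under 0.05, limma gave 1378 genes higher (4.52%) and 82 lower (0.269%). The calls were Bicral, a subunit of a SWI/SNF chromatin remodelling complex, Rhag, the Rh-associated glycoprotein of red cells, the connexin Gjb6, and 3 entries without a gene symbol. Igtp was not among them: at 6 h it differed by -0.05 ± 0.44 (SE). The 6 called at 6 h had differences from 2.85 to 4.74 there, and from -0.78 to 0.48 at 24 h.

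Rhag is an example. At 6 h it read -4.61, -3.16 and -2.89 at the full concentration and -8.20, -7.79 and -8.15 at the lowest, a difference of 4.49 ± 0.57 (SE, adjusted p 0.0133 by limma). At 24 h it read -8.44, -8.39 and -8.49 against -7.73, -8.60 and -8.49, not detected on any of the 6 arrays. Its groups were far apart at 6 h and overlapped at 24 h. The 2 concentrations at 6 h shared no scan day and no slide, so batch and concentration cannot be told apart there either.

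The difference between both times was tested as an interaction, and 0 genes passed (783, or 2.57%, at an unadjusted p under 0.05). The smallest p-values were those of Gjb6 (-3.81 ± 0.62, SE) and Igtp (3.79 ± 0.62), both at an adjusted p of 0.199 by limma, Rhag (-4.66 ± 0.80, 0.218), and, among positive interactions after Igtp, Atg12 (2.69 ± 0.70, 1.00), an autophagy conjugation factor. A call at 1 time and not at the other is therefore not shown to be a difference between times, for Igtp as for the others. Of the 10 higher named genes 9 had the same sign at 6 h, with values from -0.05 to 1.03. These genes lie in bins 1 to 5 of 10 by brightness, the dimmer part of the range. All genes of those bins had median 6 h differences from 0.19 to 0.68, so a positive sign at 6 h was common at that brightness. Of the 10 lower named genes 5 had the same sign at 6 h, with values from -0.42 to 0.95.

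The differences varied with the brightness of the genes. The genes tested were split into 10 equal bins by mean signal over the 20 arrays. The median difference between full and lowest concentration ran from 0.35 in the dimmest bin to -0.53 in the brightest. In the brightest bin 70.6% of genes had all full arrays below all lowest arrays. Of the genes of that bin 90.8% were at the scanner's saturation limit on every array of the full concentration and 69.1% on every array of the lowest. The 75th percentile of raw signal was 21937, 14356 and 18177 on the 3 full arrays and 10726, 13103 and 12536 on the 3 lowest. By construction, a spot at that limit reads lower on the scale used here where the array's percentile is higher.

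Quantile normalization, which gives all arrays the same distribution of signal, brought the medians of the bins to between -0.04 and 0.10. Scaling to the array median shifted the median of all genes from 0.07 to -0.21. The share of higher genes among those at an unadjusted p under 0.05 moved with these choices, from 64.1% to 43.9% under quantile normalization, 30.6% with the array median, 29.6% in the authors' deposited table and 55.7% with normexp correction. It also moved with no change of scaling, to 32.0% without replicate 3 of the middle concentration at 24 h. Igtp lies in the dim part of the range and was higher under each of these scalings (3.1 with quantile normalization, 3.46 with the array median and in the deposited table, 2.28 with normexp correction).

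**Figure D3:**
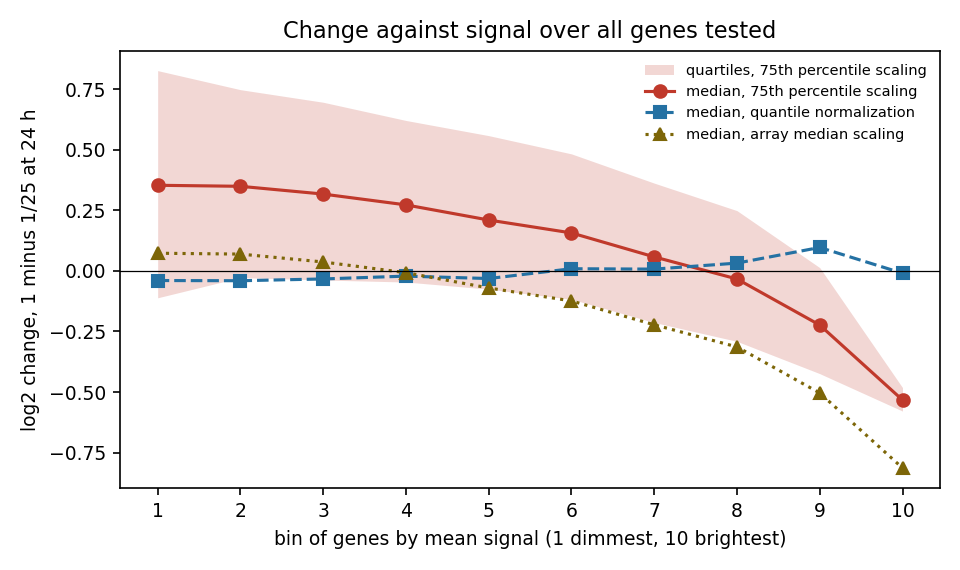
Median log2 difference between the full and the lowest concentration at 24 h for 10 equal bins of the genes tested, ordered from the dimmest (1) to the brightest (10) by mean signal; the band gives the quartiles under scaling to the 75th percentile, and the other lines give the medians under quantile normalization and under scaling to the array median. The median runs from 0.35 to -0.53 with the 75th percentile, and stays between -0.04 and 0.10 with quantile normalization.

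Of 562 distinct genes measured on the 27 lists, 1 was called (0.00328% of all genes tested were). At an unadjusted p under 0.05 by limma, 10 were higher and 18 lower (3.21% and 1.8% of all genes). More list members were lower than higher, the reverse of all genes, and the brightest bins of all genes had medians below 0 on this scale. Of the 27 list medians 17 lay below 0, against 20 under quantile normalization and all 27 with scaling to the array median. For the prostanoid genes, 14 of 21 were measured, 0 passed and 7 lay above 0, with a median of 0.04. Ptgs1, the constitutive cyclooxygenase, read 1.00, 1.05 and 1.33 at the full concentration and 1.08, 1.62 and 1.37 at the lowest, a difference of -0.23 ± 0.57 (SE; 95% interval -1.43 to 0.96). Ptgs2, the inducible form, read -2.69, -3.25 and -3.07 against -4.19, -2.98 and -3.37, a difference of 0.51 ± 0.61 (-0.77 to 1.79). The groups overlapped for both drug targets, and both intervals span 0. The highest member was Abcc4, a prostaglandin exporter, at 1.10 ± 0.64, and the lowest the receptor Ptgfr at -0.48 ± 0.41.

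Of the contractile genes 21 of 24 were measured, and 15 lay below 0, with a median of -0.52. The median was -0.11 under quantile normalization, and 7 of the 21 did not overlap, all lower (11.2% of all genes did so). Of the 21, 3 were saturated on all 6 arrays. Their median brightness was in bin 8, where all genes had a median of -0.03 and 6.68% were non-overlapping and lower. Myh6, the fast cardiac myosin heavy chain, read -1.21, -0.93 and -1.04 at the full concentration against 0.52, -0.19 and 1.05 at the lowest, a difference of -1.52 ± 0.83 (SE). Mybpc3, myosin-binding protein C, had the highest value, 1.40 ± 1.24, and overlapped widely (-0.25, -2.20 and 0.27 against -4.07, 0.36 and -2.68). None of the 21 had an unadjusted p under 0.05.

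Of 25 calcium handling and channel genes measured, 0 passed, with a median of -0.05 and 11 above 0. Kcnq1, the channel of the slow delayed rectifier potassium current, read 0.30, 0.36 and -0.19 against -1.57, -1.87 and -3.00, a difference of 2.31 ± 0.86 with groups that did not overlap. Kcnh2, the channel of the rapid delayed rectifier current, lay at -0.95 ± 0.54 and overlapped. Of 14 cardiac stress and transcription factor genes 3 were at an unadjusted p under 0.05, all lower (1.8% of all genes were). Of these Nppb (-0.64) and Gata4 (-0.59) were saturated on all 6 arrays and lay at -0.06 and -0.05 under quantile normalization. The other was Mef2a at -0.64 ± 0.29 (-0.42, -0.16 and -0.11 against 0.19, 0.48 and 0.56). The highest there was Tbx20 at 1.21 ± 1.38, a value that moved with several single arrays. It was -0.16 without replicate 1 of the lowest concentration, 2.88 without its replicate 2 and 0.18 without replicate 1 of the full.

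The lists of bright housekeeping genes had medians below 0 that moved toward 0 under quantile normalization. The 32 ribosomal protein genes had a median of -0.55, and -0.08 under quantile normalization, with 17 of 32 non-overlapping and lower (11.2% of all genes) and 7 saturated on all 6 arrays. Their median brightness was in bin 9, where all genes had a median of -0.22 and 14.6% were non-overlapping and lower. Rpl5 was their lowest at -1.59 ± 0.54 (SE) with overlapping groups, and Rplp0 their highest at 1.85 ± 1.88. The 28 oxidative phosphorylation genes had a median of -0.51, and -0.22 under quantile normalization. Their lowest was Atp5mc1, described above, and their highest Atp5f1b, a catalytic subunit of the same ATP synthase, at 1.01 ± 0.89, which turned to -0.03 without replicate 1 of the lowest concentration.

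The 27 proteasome genes had medians of -0.40 and -0.07 under both scalings, with Psmd4, a ubiquitin receptor, lowest at -0.64 ± 0.30 and Psmd3 highest at 0.55 ± 1.09. Psmd3 was -0.20 and -0.05 without replicate 1 or 3 of the lowest concentration. The 20 heat shock genes had medians of -0.47 and -0.27, with 10 non-overlapping and lower (11.2% of all genes) and 3 saturated on all 6 arrays. Hspa8, the constitutive cytosolic chaperone, read 0.82, 2.02 and 1.64 against 2.69, 2.20 and 2.42, a difference of -0.94 ± 0.38, which turned to 0.34 when the median of its probes stood for the gene. Hsph1 was highest at 1.06 ± 0.91, and -0.14 without replicate 1 of the lowest concentration.

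Stress pathways held values on both sides of 0 and 0 calls. For the integrated stress and endoplasmic reticulum stress genes (23 measured, median -0.30, and 0.04 under quantile normalization), the lowest was the chaperone Hspa5 at -1.25 ± 0.55 (SE) and the highest the disulfide isomerase Pdia4 at 1.67 ± 1.16. Hspa5 overlapped (-2.45, -0.35 and -1.40 against 0.35, -1.05 and 0.24). The NRF2 genes (25 measured, median -0.14) ran from the ferritin light chain Ftl1 at -0.88 ± 0.55 to the quinone reductase Nqo1 at 1.00 ± 1.02. The p53 genes (19, median -0.22) ran from Bbc3, a death-promoting BH3 protein, at -0.82 ± 0.68 to the polo-like kinase Plk2 at 1.55 ± 0.98. Groups overlapped for Pdia4, Nqo1 and Plk2. The apoptosis genes (23, median 0.13) ran from Bcl2l11 at -0.65 ± 0.60 to the caspase inhibitor Xiap at 1.00 ± 0.93. Bcl2l11 was 0.15 with scan day as a term, a fit in which replicate 1 alone stands for the lowest concentration. Xiap was -0.09 without replicate 1 of the full concentration.

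The cell cycle genes (37 measured) had a median of 0.15, 0.17 under quantile normalization and -0.14 with the array median, 24 members above 0 and 0 calls. The highest was Cdc25a, the phosphatase that activates cyclin-dependent kinases, at 2.27 ± 1.13 (SE). It read -2.98, -5.44 and -4.94 at the full concentration and -7.48, -4.15 and -8.53 at the lowest, so the groups overlapped through replicate 2 of the lowest. The lowest was the inhibitor Cdkn1b at -0.35 ± 0.28, and 0.84 when the median of its probes stood for the gene. The 6 measured subunits of the MCM helicase, which licenses replication origins, were chosen after their values were seen. They all lay above 0, from Mcm7 at 0.40 ± 0.32 to Mcm6 at 1.84 ± 0.88, also under quantile normalization (0.09 to 1.84), and 0 passed. Untreated levels of Cdc25a were -3.67 and -3.63.

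Metabolic lists also had 0 calls. The fatty acid oxidation genes (26 measured) had a median of 0.17, and ran from the acyl-CoA dehydrogenase Acadl at -0.59 ± 0.34 (SE) to Cpt1a, the entry enzyme of mitochondrial fatty acid import, at 1.13 ± 0.70. The cholesterol synthesis genes (27, median -0.12) ran, among members not saturated on all 6 arrays, from squalene epoxidase Sqle at -0.62 ± 0.34 to squalene synthase Fdft1 at 2.25 ± 1.19. The hypoxia and glycolysis genes (30, median -0.17) ran from the phosphofructokinase Pfkp at -0.92 ± 0.76 to lactate dehydrogenase Ldha at 1.60 ± 1.06. Groups overlapped for Cpt1a, Fdft1 and Ldha.

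The NF-kB targets (24 measured, median 0.03) ran from the chemokine Ccl20 at -1.14 ± 0.72 (SE) to Nfkb2 at 0.67 ± 0.80. The immediate early genes (21, median -0.13, and 0.11 under quantile normalization) ran from Junb at -0.78 ± 0.50 to Klf2, a shear-responsive transcription factor, at 1.06 ± 0.42. Klf2 read -3.63, -3.95 and -3.52 against -5.31, -3.89 and -5.09. Its groups overlapped by a single array, replicate 2 of the lowest concentration, which stood with the full arrays.

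The 12 cardiomyocyte markers were well above background on all 6 arrays, as were 21 of 22 fibroblast and matrix markers and 11 of 12 smooth muscle markers. Markers of the labelled cell type were thus present, beside those of other heart cells. The mean level of the cardiomyocyte markers ran from -0.34 to -0.10 on the full arrays and from -0.24 to 0.41 on the lowest, which overlapped. That of the fibroblast markers ran from -0.12 to 0.22 against 0.28 to 0.45, lower on all 3 full arrays. Its median difference was -0.52, and -0.06 under quantile normalization. Of the 21 fibroblast markers measured 5 were saturated on all 6 arrays. The median brightness of the 21 was in bin 9, where all genes had a median of -0.22. Whether scaling, fewer cells or less RNA per cell lay behind the lower level was not tested. Fewer cells of a type and less RNA per cell cannot be told apart in such bulk samples.

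For the other cell types the levels overlapped between the concentrations. Smooth muscle markers ran from -1.09 to -0.76 against -1.18 to -0.46, leukocyte and macrophage markers (16 of 18 measured, 12 well above background on all 6 arrays) from -2.74 to -2.44 against -3.06 to -2.38, and erythroid markers (7 of 11 measured) from -3.85 to -3.42 against -4.06 to -3.37. Mesothelial markers ran from -2.32 to -2.02 against -2.17 to -2.01. Endothelial markers ran from -3.58 to -3.47 against -3.68 to -3.57. Among leukocyte markers Cd74, the invariant chain of antigen presentation and itself induced by interferon gamma, differed by -1.29 ± 0.45 (SE), opposite in sign to Igtp, and C1qa by 1.45 ± 0.77. Their part in the result for Igtp was not tested.

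**Figure D4:**
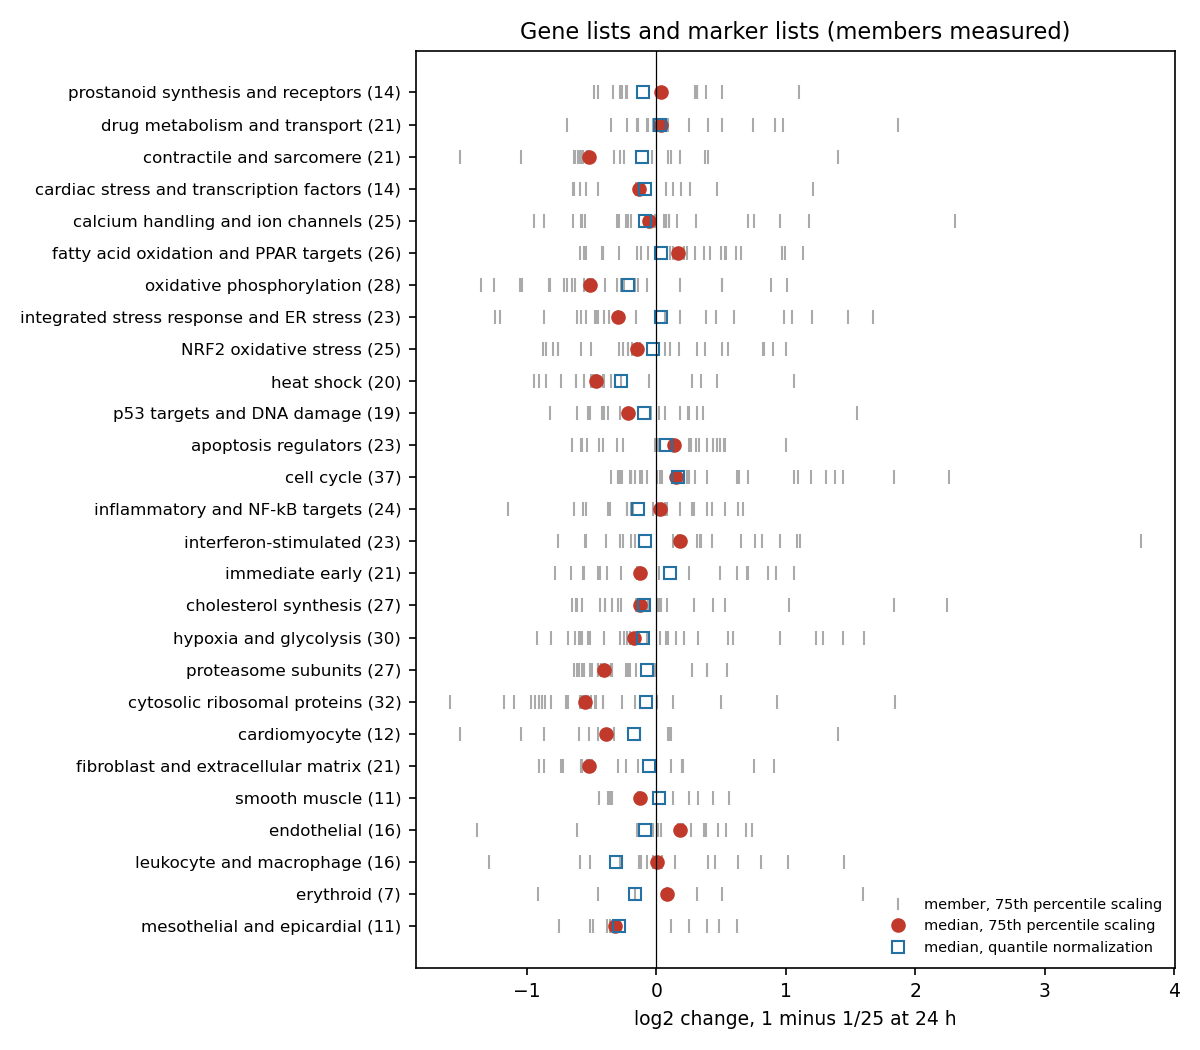
Log2 difference between the full and the lowest concentration at 24 h for the measured members (ticks) of 20 gene lists and 7 marker lists, with the median of each list under scaling to the 75th percentile (circles) and under quantile normalization (squares). Medians lie between -0.55 and 0.19 in the first scaling, the tick at 3.74 is Igtp, and 9 of the 27 medians change sign under quantile normalization.

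Between whole arrays the groups were not clearly apart. Over 30276 genes without a missing value, correlations within the full concentration were 0.919 to 0.966, within the lowest 0.880 to 0.965, and between them 0.877 to 0.973. The leading axis of the 6 arrays held 65.7% of their variance and put replicates 1 and 3 of the full concentration on one side with replicate 2 of the lowest. The next axis held 12% and had all full arrays on one side and all lowest arrays on the other. Pdia4, Plk2, Nqo1, Cpt1a, Fdft1, Ldha and Nfkb2, named above at the high end of their lists, shared an order of arrays. Within the full concentration they were lowest on replicate 2, and within the lowest concentration highest on replicate 2. Their groups overlapped, and their means at the full concentration lay below the untreated means. Between 72.4% and 85.9% of spots were well above background on the 6 arrays, with replicate 1 of the lowest concentration the least.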

How the data were processed

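Total RNA was taken with Trizol, amplified and labelled with Cy3, per the labels' protocols. The scanner files hold intensity, the spot brightness after background subtraction by Agilent Feature Extraction 9.5.3.1, per the file headers, with 43379 spots an array and no scaling between arrays. The deposited series table holds a ratio, which was checked against the scanner values to be processed signal divided by the array median and by the untreated mean, and it was used as an alternative.

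Values are log2 processed signal minus the array's 75th percentile. Non-uniform and outlier spots (120 to 271 an array) were left out, saturated spots kept and spots of a probe averaged. Probes stayed in where some group had them well above background on all of its arrays (35081 of 41012). A gene was read from its brightest such probe, giving 30516 genes. Names came from the RefSeq table (GRCr8) by accession for 10735 probes, symbol for 5571 and synonym for 3729, and from the file for 20977. Positions are those of the array files (rn3).

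Tests used limma 3.58.1 (R 4.3.3), with 7 group means over all 20 arrays, empirical Bayes moderation, two-sided tests, Benjamini-Hochberg adjustment over all genes and a threshold of 0.05. Python 3.11.15, pandas 2.3.3, numpy 2.4.6 and matplotlib 3.10.9 did the rest. The fit was tested on simulated data. Genes named in the 24 h comparison are those past the threshold with a change of at least 1 and groups that do not overlap or, with fewer than 5 in a direction, the 10 with the smallest p. For a list they are the called, highest and lowest members. At 6 h and for the interaction they are the 3 highest and 3 lowest calls or, without calls in a direction, the 2 smallest p. Names outside these rules are said to be chosen after their values were seen. Members and lists were chosen with earlier results of these data known. The number of arrays limits the precision.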

Additional observations from a re-analysis of the deposited data

How the results depend on the processing

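The 24 h comparison gave 1 call. It gave 0 with array median scaling (1566 genes at an unadjusted p under 0.05), the deposited table (1578), normexp correction (1560), quantile normalization (1244), only the 6 arrays (1704) and a trended and robust prior (1736). It also gave 0 with probes well above background on every array compared (1122), a filter that leaves Igtp out before the test. It gave 10 with slide as a random block (consensus correlation -0.168), 15836 with array weights, and, in alternatives chosen after seeing the data, 5 with scan day as a term and 9596 with weights on the 6 arrays alone. Weights ran from 0.0387 to 8.06, so those fits rest on few arrays. Leaving out a replicate gave 0 to 2 calls, 2 without replicate 3 of the middle concentration at 24 h.

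The 6 h comparison (6 calls) gave 0 with array median, deposited table, quantile normalization, trended prior and the strict filter, 14 with slide, 275 with weights and 0 to 32 without a replicate (11 without replicate 3 of the middle concentration at 24 h). The strict filter leaves out the probes of all 6 calls before the test. The interaction (0 calls) gave 12 with slide, 4787 with weights and 0 to 2 without a replicate. With the replicate number as a block the counts were 1, 7 and 0. Same-numbered arrays of full and lowest concentration at 24 h had deviations correlated at -0.50, -0.76 and -0.10, and other-numbered ones between -0.41 and 0.64. The main fit used no pairing. With 3 arrays a group these correlations cannot decide whether same-numbered samples shared a preparation.

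Of 1494 values of 69 named genes under alternatives, 10 in 9 genes turned sign. Many of the alternatives leave a difference as it was by construction, so this count does not measure how firm the signs are. Leaving out a replicate gave -0.16 to 2.88 for Tbx20, -0.027 to 1.68 for Atp5f1b, -0.14 to 2.05 for Hsph1, -0.20 to 1.89 for Psmd3 (lowest without replicate 1 of the lowest concentration, and Psmd3 also turned without its replicate 3) and -0.0897 to 2.05 for Xiap (lowest without replicate 1 of the full). The others were Hspa8 0.34 and Cdkn1b 0.84 with the median of probes, Bcl2l11 0.15 with scan day, and Tie1 -0.055 with weights. Of 594 list medians 66 moved by more than the replicate spread. The cause of these shifts was not tested. Genes saturated on every array of both groups (2186) and those detected on no array of the full (248) or of the lowest (410) concentration have only bounds.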

Other observations

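Olfactory and vomeronasal receptor genes, a group chosen after its values were seen, recurred among the extreme values at 24 h: 560 were measured, with a median difference of 0.33 and 0 calls. With groups that did not overlap and a difference of at least 1, 35 of them (6.25%) were higher at the full concentration and 8 (1.43%) lower, against 2.11% and 0.819% of all genes. They were dim, with a median in bin 2 of 10 by brightness, where all genes had a median of 0.35. Under quantile normalization the median of the receptor genes was 0.03. The named genes Or6d13c (2.52), Or14j5e (2.79) and Or2ag19 (-1.28) belong to this group.

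The smallest p at 24 h after that of Igtp belonged to LOC681900, a locus without a gene symbol, measured at chr10:14015742-14015801 (rn3). It read -6.30, -5.71 and -6.05 at the full concentration and -3.81, -3.55 and -1.47 at the lowest, a difference of -3.08 ± 0.49 (SE) that did not pass (adjusted p 0.121 by limma). The groups did not overlap. The middle concentration (-5.68, -6.33 and -6.61) stood with the full one, and the untreated arrays (-4.73 and -5.57) between both. At 6 h the difference was 0.64 ± 0.49.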
